A study of Homo sapiens with 10 samples.

Results

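The nesprin and SUN genes SYNE4, SYNE1, SYNE2, SYNE3, SUN1 and SUN2 code for the LINC complex, the bridge that links the nucleus to the cytoskeleton. They are 6 of the 26346 genes listed, matched by Ensembl gene identifier, and all 6 passed the filter on low values. SYNE4 was chosen because an earlier reading of these same libraries had shown a difference in the usage of one of its transcripts. The usage, the transcript levels and the gene sum of SYNE4 are therefore given as a description, with no test. The other 5 genes were added as the other widely expressed members of both families.

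The cells were EndoC-βH1, an insulin-producing human beta cell line. One group, of 5 libraries, received an siRNA against SRp55 (siSR#2), and the other, also of 5 libraries, a control siRNA. The labels of both groups also carry the word "exposed", without saying to what. SRp55 is the serine and arginine rich splicing factor encoded by SRSF6, and the labels name 1 siRNA sequence for its knockdown. Libraries came from polyadenylated RNA, and the series' design text calls the preparations independent. The labels number the libraries within each group and state no pairing. Libraries of equal number were taken as pairs because their deviations from the group means correlated, as described under the processing. In bulk RNA, fewer expressing cells and less RNA per cell cannot be told apart.

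SRSF6 stood at 24.9 ± 3.78 RPKM in SRp55 siRNA libraries and at 98.2 ± 3.24 RPKM in control siRNA libraries (SD, n = 5 each), and RPKM is reads per kilobase of transcript and per M reads (M, 10 to the power 6). The reads assigned to transcripts ranged from 94.7 to 189.8 M in SRp55 siRNA libraries and from 61.9 to 159.2 M in control siRNA libraries. All 8 beta cell markers checked averaged at least 0.5 RPKM, and their summed level was 18224 to 28304 RPKM in SRp55 siRNA libraries and 12729 to 24823 RPKM in control siRNA libraries. Of 5 acinar and duct markers 2 reached that level, KRT19 and CPA1, while CELA3A and PRSS1 were listed at 0, and the list summed to 41.5 to 97.6 RPKM in SRp55 siRNA libraries and 36.4 to 53.7 RPKM in control siRNA libraries. Of 6 fibroblast markers 1 reached it, and of the 3 immune and endothelial markers listed only CD68 did.

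Nesprins sit in the outer nuclear membrane. Their short C-terminal KASH domain reaches into the space between the nuclear membranes, where it is held by the SUN domain proteins of the inner membrane. The large nesprins encoded by SYNE1 and SYNE2 bind actin through their N-terminal ends, nesprin-3 binds the linker plectin, and nesprin-4 binds the motor kinesin-1. Nesprin-4 is known from secretory epithelia and from hair cells of the inner ear, where its loss in humans causes deafness. Many shorter forms of SYNE1 and SYNE2 lack the KASH domain or the actin-binding end, so that the form made matters as much as the amount.

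SYNE4 (ENSG00000181392.10) lies on the minus strand of chromosome 19, at 36494209 to 36499695 in the files' build, GRCh37, and 7 transcripts are listed for it. The structures and sequences below are those of the same transcripts in GENCODE 44 on GRCh38. The full-length coding form, SYNE4-201 (ENST00000324444.3), has 8 exons and an open reading frame of 404 codons. SYNE4-207 (ENST00000505054.2), annotated as retained_intron, keeps intron 1 between exons 1 and 2, then joins exon 2 to exon 6 and exon 6 to exon 8, and so lacks exons 3, 4, 5 and 7. Intron 1 is 186 bases long, at chr19:36008368-36008553 on the minus strand of GRCh38, and has 63.4% G and C. It is shown because its presence sets SYNE4-207 apart from every other listed SYNE4 transcript. SYNE4-207 as annotated lacks the start codon of SYNE4-201, so the frame was read from the first whole codon inside it. The capitals mark the first stop codon in the reading frame of SYNE4-201, which begins at base 62 of the intron.
SYNE4 intron 1: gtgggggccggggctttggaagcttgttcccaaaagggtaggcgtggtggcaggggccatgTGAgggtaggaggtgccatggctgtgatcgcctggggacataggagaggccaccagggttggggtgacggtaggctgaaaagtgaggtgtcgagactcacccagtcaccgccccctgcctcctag

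The junctions that tell the transcripts apart are shown next, each with 20 bases of the upstream exon in lower case and 20 bases of the downstream exon in capitals. SYNE4-207 uses the same ends of exons 2 and 6 as SYNE4-201 and joins them to other exons.
SYNE4-201 exon 1 to exon 2: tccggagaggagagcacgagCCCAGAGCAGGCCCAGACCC
SYNE4-201 exon 2 to exon 3: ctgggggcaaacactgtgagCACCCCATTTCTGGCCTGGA
SYNE4-207 exon 2 to exon 6: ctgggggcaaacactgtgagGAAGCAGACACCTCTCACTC
SYNE4-201 exon 6 to exon 7: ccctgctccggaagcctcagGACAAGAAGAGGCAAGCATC
SYNE4-207 exon 6 to exon 8: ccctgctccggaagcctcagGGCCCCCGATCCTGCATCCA

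Exon 6 also follows the junctions by which SYNE4-205 and SYNE4-203 differ from SYNE4-201. SYNE4-205 (ENST00000490730.1) keeps 70 of the 249 bases of exon 5 and leaves out the other 179. SYNE4-203 (ENST00000397428.3) joins exon 1 directly to exon 6.
SYNE4-201 exon 5 to exon 6: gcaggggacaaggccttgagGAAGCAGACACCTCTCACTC
SYNE4-205 inside exon 5 to exon 6: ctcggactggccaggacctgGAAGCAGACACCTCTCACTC
SYNE4-203 exon 1 to exon 6: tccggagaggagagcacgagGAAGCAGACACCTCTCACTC

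The retained-intron transcript SYNE4-207 held most of the SYNE4 signal in control siRNA cells and little of it in SRp55 siRNA cells. It stood at 0.573, 0.477, 0.419, 0.388 and 0.149 RPKM in SRp55 siRNA libraries 1 to 5, against 15.8, 10.2, 8.97, 18.8 and 9.31 RPKM in control siRNA libraries 1 to 5. Every SRp55 siRNA library lay below every control siRNA library. The means were 0.401 ± 0.158 RPKM with SRp55 siRNA and 12.6 ± 4.43 RPKM with control siRNA (SD, n = 5 each).

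As a share of the gene's RPKM, SYNE4-207 made up 3.27%, 5.97%, 5.92%, 3.93% and 1.58% in SRp55 siRNA libraries, against 75.1%, 73.3%, 66.7%, 77.7% and 66.0% in control siRNA libraries. The mean share was 4.13% ± 1.86 with SRp55 siRNA and 71.8% ± 5.17 with control siRNA, a difference of -67.6 percentage points. RPKM gives a short transcript more weight per read, and SYNE4-207 is 713 bases long. Of the estimated reads of the gene it held 2.42% ± 1.03 with SRp55 siRNA and 59.1% ± 6.63 with control siRNA. These shares rest on 16.1 to 58.0 estimated reads per library for SYNE4-207 with SRp55 siRNA and 576 to 2349 with control siRNA.

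**Figure D1:**
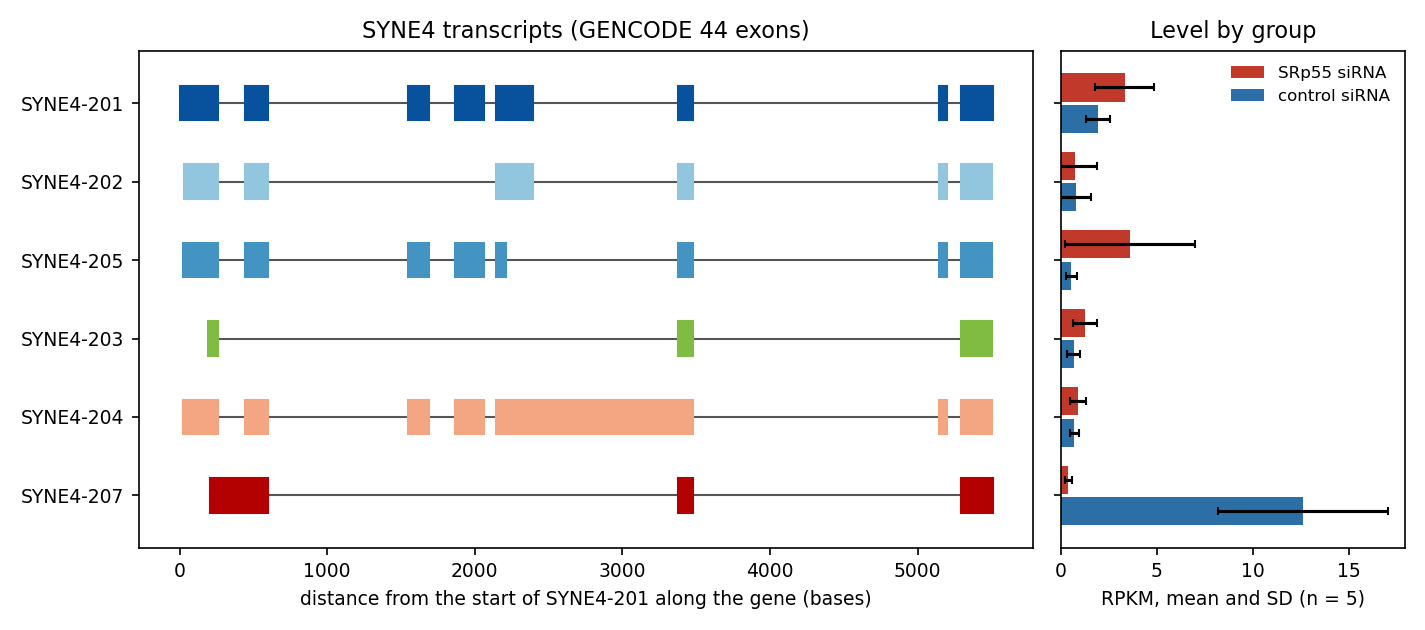
Exons of 6 SYNE4 transcripts, drawn by distance in bases from the start of SYNE4-201 (left), and the mean RPKM of each transcript with its SD over 5 libraries (right, SRp55 siRNA in red above control siRNA in blue; bars of SD that would pass below 0 are cut at the axis). SYNE4-207, which joins exons 1 and 2 through intron 1, stood at 0.401 RPKM with SRp55 siRNA and 12.6 RPKM with control siRNA, and SYNE4-206, near 0 in all libraries, is not drawn.

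The rest of the gene lay higher with SRp55 siRNA. All SYNE4 transcripts other than SYNE4-207 summed to 17.0, 7.52, 6.67, 9.48 and 9.23 RPKM in SRp55 siRNA libraries, against 5.23, 3.70, 4.47, 5.41 and 4.79 RPKM in control siRNA libraries. The groups did not overlap, and the means were 9.97 ± 4.08 RPKM with SRp55 siRNA and 4.72 ± 0.678 RPKM with control siRNA. In reads per M assigned reads, which carry no transcript length, the same sum was 13.8 ± 4.5 with SRp55 siRNA and 7.31 ± 1.2 with control siRNA, again without overlap.

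Values for the exons that SYNE4-207 lacks are sums of transcripts already in this total, so they are not separate from it. No reads were counted by exon. Transcripts with exons 3 and 4 stood at 15.7, 5.77, 5.77, 4.98 and 7.01 RPKM in SRp55 siRNA libraries, against 4.32, 2.34, 3.22, 3.16 and 2.96 RPKM in control siRNA libraries. Transcripts with exon 7 averaged 8.61 ± 4.26 RPKM with SRp55 siRNA and 3.99 ± 0.982 RPKM with control siRNA. In both cases every SRp55 siRNA library lay above every control siRNA library. Transcripts with the whole of exon 5 were less apart, at 6.82, 3.75, 3.87, 7.21 and 3.33 RPKM with SRp55 siRNA and 3.43, 1.80, 3.36, 4.89 and 3.77 RPKM with control siRNA, and the groups overlapped.

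SYNE4-201, the form with the complete reading frame, stood at 6.0, 2.66, 2.22, 3.29 and 2.48 RPKM in SRp55 siRNA libraries, against 2.82, 1.11, 2.12, 2.01 and 1.67 RPKM in control siRNA libraries. It was higher with SRp55 siRNA in 5 of 5 pairs of equal number, but the groups overlapped. SYNE4-205 stood at 9.30, 2.42, 2.07, 0.543 and 3.76 RPKM with SRp55 siRNA and at 0.970, 0.717, 0.466, 0.313 and 0.271 RPKM with control siRNA. It was also higher in 5 of 5 pairs, by a margin that ran widest in replicate 1, and only SRp55 siRNA replicate 4 fell within the range of the control siRNA libraries. Read from the start codon of SYNE4-201, SYNE4-205 meets no stop codon before the end of the annotated transcript. The bases it leaves out of exon 5 shift the frame, so the exons after that are not read in the frame of SYNE4-201.

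SYNE4-202 (ENST00000340477.5) skips exons 3 and 4, 339 bases in all, and keeps the frame and the stop codon of SYNE4-201 over 291 codons. It stood at 0.383, 0.395, 0.175, 2.77 and 0.0766 RPKM with SRp55 siRNA and at 0.0752, 0.171, 0.604, 2.05 and 1.07 RPKM with control siRNA. The highest value of both groups came from replicate 4. The 2 forms that end at the stop codon of SYNE4-201, SYNE4-201 and SYNE4-202, together stood at 4.09 ± 1.97 RPKM with SRp55 siRNA and 2.74 ± 0.984 RPKM with control siRNA, with overlap and with 3 of 5 pairs higher under SRp55 siRNA. Their share of the gene's RPKM was 39.4% ± 13.0 with SRp55 siRNA and 15.9% ± 4.50 with control siRNA, and the groups of shares did not overlap.

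SYNE4-204 (ENST00000465425.1) is the other retained_intron transcript and keeps intron 5, of 985 bases, in place of intron 1. It stood at 0.438, 0.694, 1.48, 1.14 and 0.776 RPKM with SRp55 siRNA and at 0.532, 0.511, 0.633, 0.838 and 1.02 RPKM with control siRNA. These groups overlapped, and 3 of 5 pairs were higher with SRp55 siRNA. SYNE4-203 stood at 1.26 ± 0.613 RPKM with SRp55 siRNA and 0.683 ± 0.335 RPKM with control siRNA, with overlap. Read on from exon 1, the frame of SYNE4-201 meets a stop codon in exon 6 of SYNE4-203, but SYNE4-203 as annotated lacks the start codon of SYNE4-201.

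**Figure D2:**
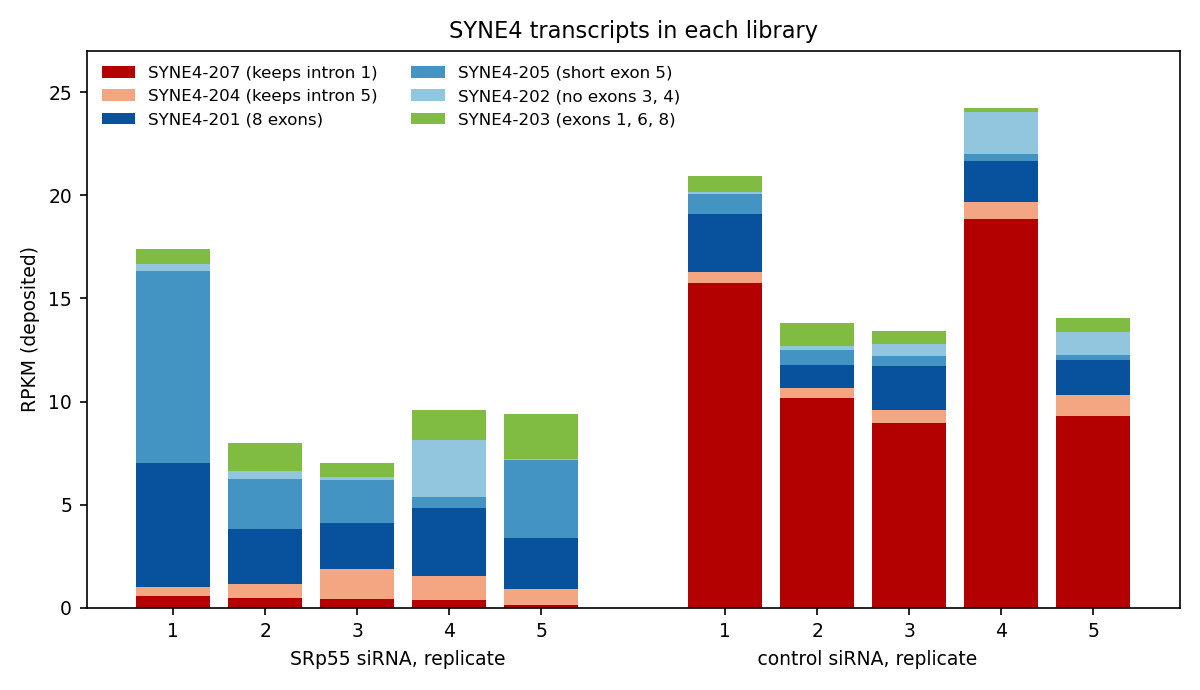
RPKM of SYNE4 transcripts stacked for each library, the 5 SRp55 siRNA libraries on the left and the 5 control siRNA libraries on the right. The dark red base of each bar is SYNE4-207, at 0.149 to 0.573 RPKM with SRp55 siRNA and 8.97 to 18.8 RPKM with control siRNA.

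The gene sum of SYNE4 was 17.5, 8.0, 7.09, 9.87 and 9.38 RPKM in SRp55 siRNA libraries, against 21.0, 13.9, 13.4, 24.2 and 14.1 RPKM in control siRNA libraries. It was lower with SRp55 siRNA in 5 of 5 pairs, but replicate 1 of the SRp55 siRNA group lay above 3 control siRNA libraries. The means were 10.4 ± 4.15 RPKM with SRp55 siRNA and 17.3 ± 4.96 RPKM with control siRNA, a log2 fold change of -0.85 relative to the median tested gene. In reads per M assigned reads the gene stood at 14.1 ± 4.53 with SRp55 siRNA and 18.1 ± 3.44 with control siRNA, and the log2 fold change was -0.36.

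No listed gene overlaps SYNE4. ALKBH6, whose coordinates begin 327 bases away on the same strand, stood at 10.4 ± 1.61 RPKM with SRp55 siRNA and 8.47 ± 3.62 RPKM with control siRNA (limma adjusted p = 0.44). SDHAF1, 6989 bases away on the other side, stood at 9.81 ± 0.936 RPKM with SRp55 siRNA and 10.9 ± 1.77 RPKM with control siRNA (limma adjusted p = 0.59).

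Of 4380 retained_intron transcripts in genes with a coding transcript, 215 were lower and 340 higher with SRp55 siRNA by at least 10 percentage points of usage, by group means and without a test, and the median difference was 0.709 points. SYNE4-207 had the largest drop among them, and the next, in BMP2K, was -52.5 points. SYNE4 was chosen on this measure, so its rank describes the choice.

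The 6 genes ranked by RPKM as SUN1, SUN2, SYNE1, SYNE4, SYNE2 and SYNE3 with SRp55 siRNA, and as SUN1, SUN2, SYNE4, SYNE1, SYNE2 and SYNE3 with control siRNA. With SRp55 siRNA the libraries of neighbours in this order overlapped except between SUN2 and SYNE1 and between SYNE2 and SYNE3. With control siRNA they overlapped except between SYNE4 and SYNE1 and between SYNE2 and SYNE3. SYNE4 and SYNE1 thus changed places, with means of 10.4 and 13.5 RPKM with SRp55 siRNA and of 17.3 and 8.32 RPKM with control siRNA.

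**Figure D3:**
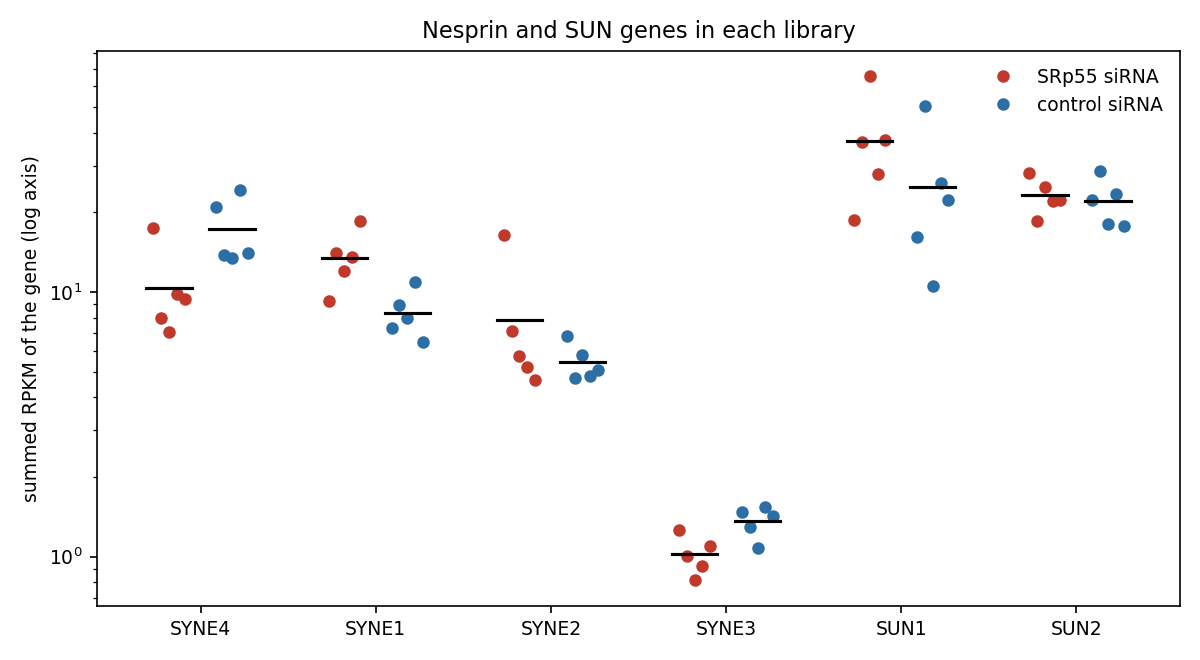
Summed RPKM of each gene on a log axis, with 1 point per library (SRp55 siRNA red, on the left of each pair; control siRNA blue) and a line at the mean of the 5. SYNE3 was lowest, at about 1 RPKM in both groups, and the single high SYNE2 point is SRp55 siRNA replicate 1, at 16.4 RPKM.

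Of the 5 genes other than SYNE4, 0 passed the limma test for gene expression at an adjusted p of 0.05 over 13630 genes, of which 5.02% passed, 3.76% as higher and 1.25% as lower with SRp55 siRNA. At an unadjusted p under 0.05 there were 2 of 5, SYNE1 and SYNE3, where 21.9% of all tested genes reached it. None of the 5 had groups that did not overlap, against 7.92% of tested genes. The level of every gene is given next, with its fold change on the log2(RPKM + 0.5) scale relative to the median tested gene.

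SYNE1, the giant nesprin-1, summed to 9.21, 14.1, 12.0, 13.5 and 18.5 RPKM in SRp55 siRNA libraries, against 7.29, 8.92, 8.01, 10.9 and 6.48 RPKM in control siRNA libraries. It was higher with SRp55 siRNA in 5 of 5 pairs, and only SRp55 siRNA replicate 1 fell within the control range. The log2 fold change was 0.54 with a standard error of 0.19 and a 95% interval of 0.13 to 0.95 (limma adjusted p = 0.071). The gene passed the test when SRp55 siRNA replicate 1 (0.70, limma adjusted p = 0.039) or control siRNA replicate 4 (0.59, limma adjusted p = 0.036) was left out, as did 3.38% and 7.96% of all tested genes in those fits. On reads per M assigned reads it stood at 76.0 ± 11.8 with SRp55 siRNA and 65.2 ± 4.99 with control siRNA, a log2 fold change of 0.22 (limma adjusted p = 0.21).

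The 5 SYNE1 transcripts over 20 kb, which code for the giant forms, stood at 0.522 ± 0.128 RPKM with SRp55 siRNA and 0.453 ± 0.0814 RPKM with control siRNA. They held 21.7% ± 6.08 of the gene's estimated reads with SRp55 siRNA and 23.2% ± 5.66 with control siRNA, and the groups overlapped. The 14 transcripts annotated as retained_intron summed to 4.15, 9.22, 6.52, 4.66 and 14.7 RPKM with SRp55 siRNA and to 3.89, 3.82, 3.57, 5.05 and 2.74 RPKM with control siRNA. The highest of these values lay mostly in 1 short transcript of 526 bases, ENST00000545694.1, which stood at 11.5 RPKM in SRp55 siRNA replicate 5 and at 0.592 to 1.73 RPKM in the other SRp55 siRNA libraries, against 0 to 1.17 RPKM in control siRNA libraries.

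The KASH domain is encoded at the 3′ end of the nesprin genes. Of 41 SYNE1 transcripts listed, 16 reach the last exon of the longest one, counted whatever their annotation and with retained_intron transcripts among them. Their share of the gene's RPKM was 36.1%, 28.2%, 37.4%, 33.8% and 20.2% with SRp55 siRNA, against 43.5%, 31.4%, 47.6%, 38.9% and 56.0% with control siRNA. The share was lower with SRp55 siRNA in 5 of 5 pairs, with overlap around control siRNA replicate 2. The SYNE1 sum itself was higher with SRp55 siRNA in 5 of 5 pairs. A lower share therefore need not mean a lower level of the transcripts that reach the last exon.

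The mean share was 31.2% ± 7.06 with SRp55 siRNA and 43.5% ± 9.22 with control siRNA, a difference of -12.3 points (exact two-sided permutation test, p = 0.0476, and 0.143 after Benjamini-Hochberg adjustment over the 3 nesprin genes compared this way). The smallest p this unpaired test allows is 0.00794. With the libraries taken as pairs, the exact sign-flip permutation test gave p = 0.0625, the smallest it can give with 5 pairs, and 0.188 after the same adjustment. As a share of estimated reads the difference was -7.34 points with an adjusted exact p of 0.0238. Without control siRNA replicate 2 it was -15.3 points, with an adjusted exact permutation p of 0.0476, and with the transcripts that have no GENCODE 44 record left out, an alternative chosen after seeing the data, it was -12.3 points with the same adjusted p.

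SYNE2, the giant nesprin-2, summed to 16.4, 7.11, 5.72, 5.21 and 4.65 RPKM in SRp55 siRNA libraries, against 6.84, 4.75, 5.77, 4.82 and 5.09 RPKM in control siRNA libraries. Only SRp55 siRNA replicate 1 stood outside the range of 4.65 to 7.11 RPKM that held the other 9 libraries. The log2 fold change was 0.23, with an interval of -0.39 to 0.86 (limma adjusted p = 0.52), and -0.02 without that replicate. In reads per M assigned reads the gene stood at 134 ± 27.3 with SRp55 siRNA and 135 ± 18.6 with control siRNA.

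In reads per M assigned reads SRp55 siRNA replicate 1 was not high, at 117. The other SRp55 siRNA libraries stood at 107 to 177 and the control siRNA libraries at 106 to 152. The RPKM excess of SRp55 siRNA replicate 1 lay in short SYNE2 transcripts. Those of 20 kb or less summed to 13.4 RPKM there and to 0.192 to 0.830 RPKM in the other SRp55 siRNA libraries, against 0.161 to 1.12 RPKM in control siRNA libraries. The giant forms, over 20 kb, stood at 3.05, 6.88, 5.50, 4.38 and 4.46 RPKM with SRp55 siRNA, against 5.72, 4.58, 5.54, 4.37 and 4.93 RPKM with control siRNA. SRp55 siRNA replicate 1 also had the lowest share of SYNE2 in transcripts that reach the last exon, 51.0%, against 86.6% to 97.8% in the other SRp55 siRNA libraries and 87.9% to 97.9% in control siRNA libraries. The means of this share were 86.0% ± 20.1 with SRp55 siRNA and 94.6% ± 4.22 with control siRNA (exact two-sided permutation test, adjusted p = 0.76).

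The 2 giant SYNE2 forms that passed the filter are 21777 and 21875 bases long and traded places between libraries. ENST00000344113.4 stood at 0.929, 0, 3.62, 0 and 0 RPKM with SRp55 siRNA, against 0, 0, 0, 0 and 4.66 RPKM with control siRNA. ENST00000358025.3 stood at 1.89, 6.59, 1.86, 3.67 and 4.26 RPKM with SRp55 siRNA and at 5.01, 4.38, 5.34, 4.01 and 0.250 RPKM with control siRNA. Control siRNA replicate 5, the highest library for the first, was the lowest for the second.

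**Figure D4:**
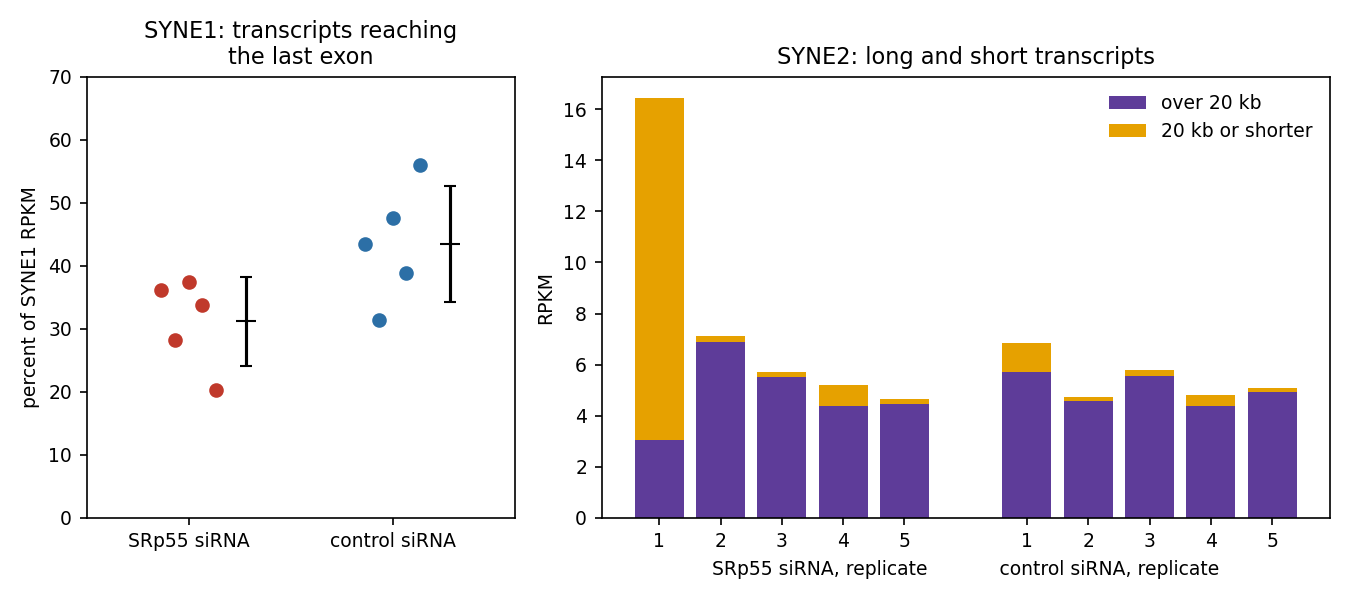
Left, percent of SYNE1 RPKM in transcripts that reach the last exon, 1 point per library with the mean and SD beside them, SRp55 siRNA (mean 31.2%) left of control siRNA (mean 43.5%). Right, RPKM of SYNE2 transcripts over 20 kb and of 20 kb or less, stacked for each library: the short ones reached 13.4 RPKM in SRp55 siRNA replicate 1 and at most 1.12 RPKM elsewhere.

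SYNE3, which codes for nesprin-3, was the lowest of the family, at 1.26, 1.00, 0.812, 0.925 and 1.09 RPKM in SRp55 siRNA libraries, against 1.48, 1.29, 1.08, 1.54 and 1.42 RPKM in control siRNA libraries. It was lower with SRp55 siRNA in 5 of 5 pairs, and the groups overlapped between 1.08 and 1.26 RPKM. The log2 fold change was -0.40, with an interval of -0.66 to -0.15 (limma adjusted p = 0.17), on a scale that understates changes of genes this low. On reads per M assigned reads the gene stood at 3.87 ± 0.658 with SRp55 siRNA and 5.43 ± 0.707 with control siRNA, and there it passed the test (log2 fold change -0.43, limma adjusted p = 0.034), as did 17.2% of all tested genes. Only 1 of its 5 transcripts passed the filter, the coding ENST00000334258.5, at 0.727 ± 0.0752 RPKM with SRp55 siRNA and 0.928 ± 0.345 RPKM with control siRNA. Transcripts that end with the last exon of this form held 90.4% ± 4.12 of SYNE3 with SRp55 siRNA and 87.8% ± 9.17 with control siRNA. By the planned reference, a retained_intron form, the share was 3.64% ± 1.81 with SRp55 siRNA and 3.52% ± 3.13 with control siRNA (exact two-sided permutation test, adjusted p = 0.95).

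SUN1 had the widest spread in RPKM between libraries, at 18.7, 37.0, 65.6, 28.0 and 37.6 RPKM with SRp55 siRNA, against 16.2, 50.4, 10.5, 25.9 and 22.3 RPKM with control siRNA. It codes for one of the inner membrane proteins that hold the KASH domain. The log2 fold change was 0.53, with an interval of -0.36 to 1.42 (limma adjusted p = 0.39). It was 0.29 without control siRNA replicate 3, 0.30 without SRp55 siRNA replicate 3 and 0.84 without control siRNA replicate 2. On reads per M assigned reads SUN1 stood at 81.1 ± 31.7 with SRp55 siRNA and 70.6 ± 31.8 with control siRNA, higher in 2 of 5 pairs, and the log2 fold change was 0.23. Its 17 transcripts annotated as protein_coding summed to 6.49 ± 2.66 RPKM with SRp55 siRNA and 6.06 ± 2.17 RPKM with control siRNA, and its 14 retained_intron transcripts to 24.0 ± 14.9 RPKM with SRp55 siRNA and 13.7 ± 12.5 RPKM with control siRNA.

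Much of this spread lay in 2 short retained_intron transcripts of SUN1. ENST00000464442.1, of 580 bases, stood at 5.56, 12.6, 41.1, 4.87 and 9.71 RPKM with SRp55 siRNA, against 0.422, 15.6, 1.6, 10.5 and 0.70 RPKM with control siRNA. ENST00000488628.1, of 626 bases, stood above 10 RPKM in SRp55 siRNA replicate 4 (10.9 RPKM) and control siRNA replicate 2 (12.7 RPKM) and at most at 1.71 RPKM in the other 8 libraries.

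SUN2, the other widely expressed SUN protein, stood at 28.2, 18.6, 25.0, 22.1 and 22.4 RPKM with SRp55 siRNA, against 22.3, 28.8, 18.1, 23.4 and 17.8 RPKM with control siRNA. The groups overlapped over most of their range, and the log2 fold change was -0.02, with an interval of -0.37 to 0.32 (limma adjusted p = 0.80). Its main coding transcript, ENST00000405510.1, stood at 7.94 ± 1.83 RPKM with SRp55 siRNA and 8.37 ± 1.96 RPKM with control siRNA.

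Transcript by transcript, 37 of the 140 transcripts of the 6 genes had a mean of at least 0.5 RPKM, 6 of SYNE4 and 31 of the other 5 genes. Of these 31, 0 passed the limma test at an adjusted p of 0.05, where 0.083% of 57818 tested transcripts did. At an unadjusted p under 0.05 there were 4 of 31, where 9.0% of all tested transcripts reached it, and 0 of 31 had groups that did not overlap, against 3.05%. Their log2 fold changes ran from -1.35 for the SUN1 transcript ENST00000457861.1, annotated as nonsense_mediated_decay, to 1.64 for ENST00000464442.1.

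ENST00000457861.1 stood at 0.380, 0.299, 0.285, 0.178 and 0.256 RPKM with SRp55 siRNA, against 3.19, 1.98, 0.195, 3.82 and 0.241 RPKM with control siRNA. The SRp55 siRNA libraries were all low, and the control siRNA libraries split into 3 high and 2 low ones (limma adjusted p = 0.53). This transcript runs from 891587 to 936072 and so across GET4, at 916189 to 936073 on the same strand. How far its reads came from GET4 was not tested. The lowest adjusted p of the 31 was that of the SUN1 transcript ENST00000427969.1, at 0.778 ± 0.347 RPKM with SRp55 siRNA and 0.275 ± 0.0582 RPKM with control siRNA (log2 fold change 0.56, limma adjusted p = 0.45, higher in 5 of 5 pairs).

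**Figure D5:**
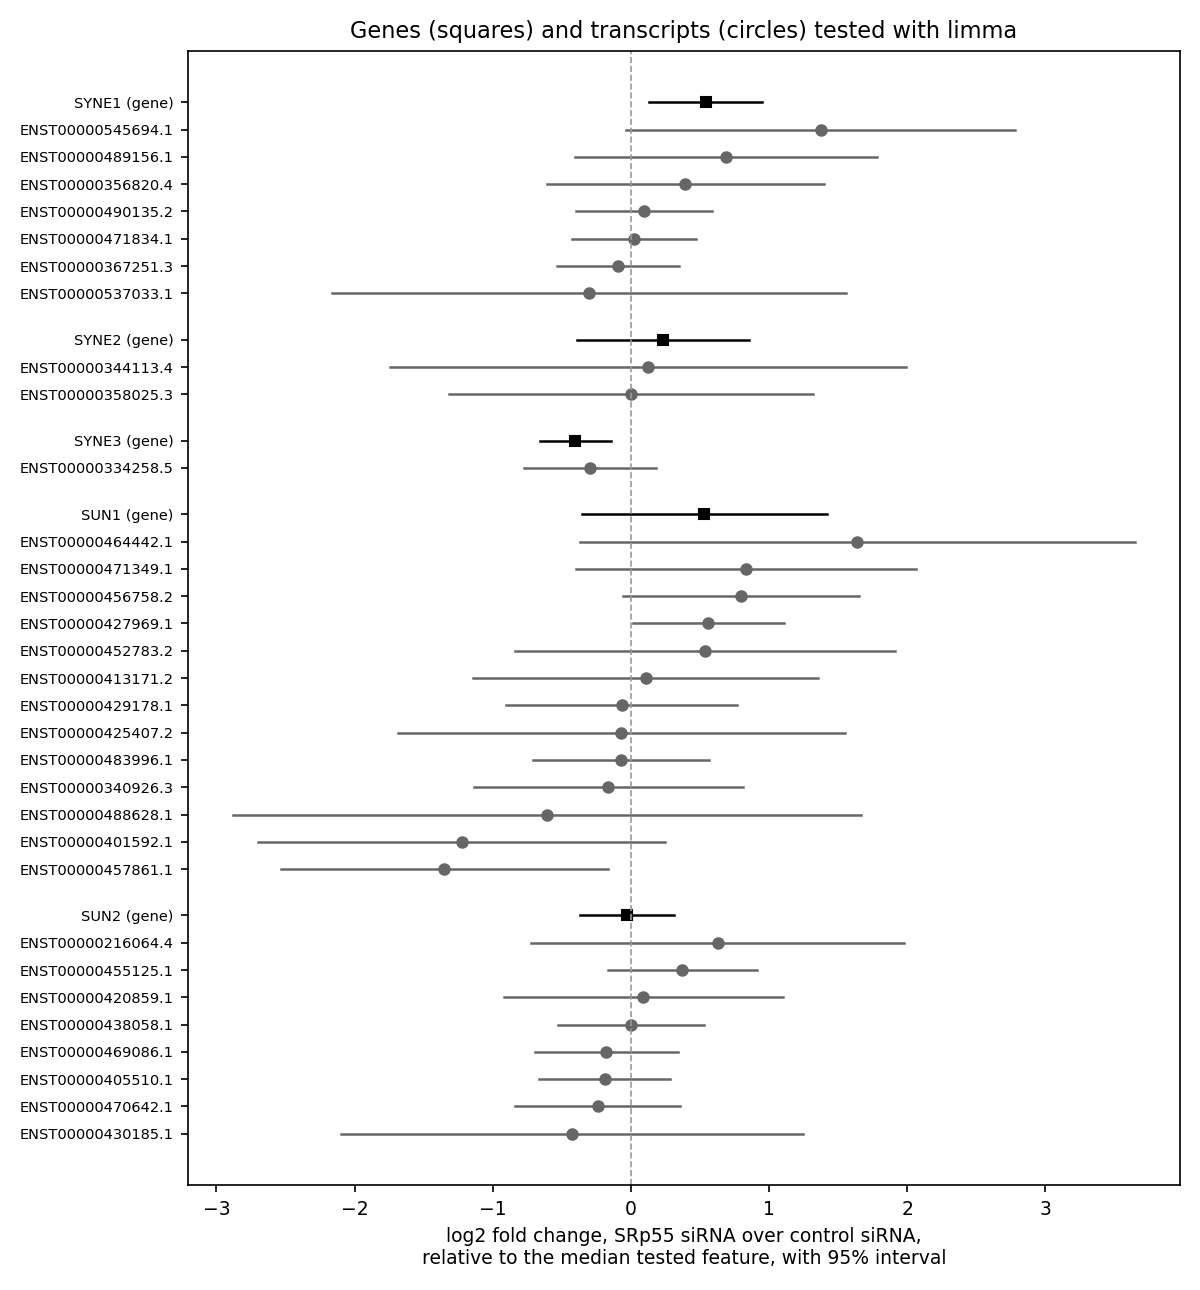
Log2 fold change, SRp55 siRNA over control siRNA, with its 95% interval for the 5 genes tested (squares) and their 31 tested transcripts (circles), relative to the median tested gene or transcript. Gene values run from -0.40 for SYNE3 to 0.54 for SYNE1, and the widest intervals belong to transcripts that were high in single libraries.

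Usage, the share of each transcript in its gene, could be tested in 4 of the 5 genes, since SYNE3 had only 1 transcript past the filter. By limma's diffSplice F test with a shift of at least 10 points, 0 of the 4 passed, where 0.504% of 9915 tested genes did, and 0 of the 4 had an unadjusted p under 0.05, against 9.14%. The largest mean shift was 14.4 points for ENST00000545694.1 in SYNE1 (limma adjusted p = 0.87), -9.44 points for ENST00000358025.3 in SYNE2 (limma adjusted p = 1.0), 15.4 points for ENST00000464442.1 in SUN1 (limma adjusted p = 0.75) and 5.85 points for ENST00000216064.4 in SUN2 (limma adjusted p = 1.0). Single libraries carried much of each shift. The SYNE1 shift was 3.89 points without SRp55 siRNA replicate 5, the SUN1 shift 8.23 points without SRp55 siRNA replicate 3, and the SUN2 shift 0.438 points without SRp55 siRNA replicate 4. The SYNE2 shift ran from -25.5 points without control siRNA replicate 5 to 2.62 points without SRp55 siRNA replicate 1.

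Some of these genes share sequence with neighbours, and the use of strand in counting is not given in the sources used here. SYNE1 overlaps ESR1 and SYNE2 overlaps ESR2 on the other strand, and the mean of either neighbour was at most 0.129 RPKM in each group. SUN2 overlaps GTPBP1 on the other strand, at 14.6 ± 1.84 RPKM with SRp55 siRNA and 14.8 ± 5.48 RPKM with control siRNA, and DNAL4 on its own strand, at 11.1 ± 10.6 RPKM with SRp55 siRNA and 4.96 ± 3.57 RPKM with control siRNA. SUN1 overlaps GET4 on its own strand, at 12.4 ± 4.55 RPKM with SRp55 siRNA and 11.7 ± 4.38 RPKM with control siRNA. Their part in the SUN1 and SUN2 values was not tested.

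The genes that work with the LINC complex were followed as 3 lists, 39 genes in all, of which 34 passed the filter. By the same limma fit 0 of 34 passed, against 5.02% of tested genes, and 6 of 34 had an unadjusted p under 0.05, against 21.9%. Among the 5 other SUN and KASH genes only SPAG4 was tested, and SUN3, SUN5, KASH5 and IRAG2 ranged from 0 to 0.208 RPKM. The 16 lamina and nuclear membrane genes had a median log2 fold change of -0.13 and the 17 tested motor and cytoskeleton genes one of 0.06, against 0.00 for all tested genes.

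LMNB1, KIF5B and KIF5C had the lowest p-values in these lists and were named after their values were seen. LMNB1, which codes for lamin B1, a filament of the nuclear lamina, stood at 88.7, 123, 108, 120 and 98.1 RPKM with SRp55 siRNA, against 59.2, 91.8, 83.1, 86.1 and 74.0 RPKM with control siRNA (log2 fold change 0.34, limma adjusted p = 0.10). KIF5B, a heavy chain of kinesin-1, stood at 65.0 ± 8.6 RPKM with SRp55 siRNA and 49.3 ± 6.09 RPKM with control siRNA (log2 fold change 0.29, limma adjusted p = 0.10). KIF5C, a neuronal kinesin-1 heavy chain, stood at 53.2 ± 5.13 RPKM with SRp55 siRNA and 43.2 ± 3.77 RPKM with control siRNA (log2 fold change 0.19, limma adjusted p = 0.14). All 3 were higher with SRp55 siRNA in 5 of 5 pairs, and all 3 passed the limma test when the replicate number entered as a block, where 13.1% of all tested genes did.

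Of the other partners, likewise named after their values were seen, LMNA, which codes for lamins A and C, stood at 16.8 ± 2.51 RPKM with SRp55 siRNA and 17.4 ± 3.47 RPKM with control siRNA, and EMD, which codes for emerin, at 26.8 ± 6.01 RPKM with SRp55 siRNA and 22.6 ± 8.04 RPKM with control siRNA. PLEC, which codes for the nesprin-3 partner plectin, stood at 4.17 ± 0.420 RPKM with SRp55 siRNA and 5.08 ± 0.772 RPKM with control siRNA, and KLC1, a kinesin-1 light chain, at 28.0 ± 5.12 RPKM with SRp55 siRNA and 32.0 ± 6.41 RPKM with control siRNA. PLEC and KLC1 were lower with SRp55 siRNA in 5 of 5 pairs. These 2 genes, LMNB1 and TOR1AIP1 passed the test on estimated reads per M assigned, where 17.2% of all tested genes did, and none of the 4 passed it on RPKM. No partner gene of the 31 that could be tested for usage passed the diffSplice test.

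Over the 10 libraries, the gene sums most like that of SYNE4 were those of USH1C, with Pearson's r of 0.967 on log2(RPKM + 0.5), IGSF8 with 0.960 and AP5B1 with 0.958, among 11430 genes averaging 2 RPKM or more. USH1C stood at 54.4 RPKM with SRp55 siRNA and 62.1 RPKM with control siRNA. With each group's mean removed, the closest were ADISSP at 0.983, APOL2 at 0.981 and PSMD8 at 0.980. Of the family members above 2 RPKM, SYNE1 had an r of -0.60 with SYNE4 over all libraries and -0.17 with group means removed, and SUN1 one of -0.59 and -0.45. SYNE2 had an r of 0.20 over all libraries and 0.65 with group means removed, and SUN2 one of 0.18 and 0.43. The 10 libraries share depth and scaling, so these values describe the libraries and are no test.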

How the data were processed

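RNA was measured by sequencing of polyadenylated RNA in 10 libraries, 5 with SRp55 siRNA and 5 with control siRNA, and groups and replicate numbers come from the labels. The submitters' processing notes name TopHat and the build GRCh37 (hg19). How reads were assigned to transcripts, with which annotation and whether by strand, is not given in the sources used here. The files the authors deposited each list 155130 transcripts with an estimated number of reads, usually fractional, and an RPKM value in 1 text field. For that reason no count test was run. RPKM was divided by a library total above the reads assigned. Assigned reads were 87.0% ± 7.24 of it with SRp55 siRNA and 82.1% ± 6.82 with control siRNA (SD, n = 5 each).

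Gene values are sums of transcript RPKM. Features with a mean of at least 0.5 RPKM were tested with limma 3.58.1 (R 4.3.3, trend and robust) on log2(RPKM + 0.5), two-sided, with Benjamini-Hochberg adjustment over all features tested. The script was tested on simulated data. Usage was tested with diffSplice for transcripts of at least 5% usage. As the median tested gene moved by 0.11 on the log2 scale, fold changes are relative to the median, while p-values test the change as deposited. Symbols, biotypes, exons and sequences come from GENCODE 44 (GRCh38) by Ensembl ID, where 5 of 7 SYNE4 transcripts have the deposited length and the others differ by at most 23 bases. For SYNE3, the longest transcript with a last exon record is a retained_intron form, so shares by the coding form were added after seeing the data. The adjusted p-values of the last-exon shares rest on the retained_intron form. With the coding form, the adjusted exact permutation p of SYNE2 was 0.65.

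The 6 genes and all lists were chosen with earlier results of these data known. The rule for names took all 6 genes, their transcripts of at least 0.5 RPKM on average, neighbours of SYNE4 and the 3 genes most like it. All 31 tested transcripts of the other 5 genes are named in the plot of fold changes and only some of them in the text. Over all genes, deviations from the group means correlated at 0.128 to 0.414 between libraries of equal number and at most 0.121 between others, and 10 of 10 libraries were closest to their own number, so the numbers pair the libraries. The main limma and diffSplice fits did not use this pairing. With the replicate number as a block, limma adjusted p was 0.066 for SYNE1 and 0.059 for SYNE3, and 13.1% of all tested genes passed. Alternatives were other pseudocounts, no filter, other scalings, estimated reads, the replicate block and leaving out each library.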

Additional observations from a re-analysis of the deposited data

Results flagged for a closer look

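In 17 of 96 groups of 5 libraries examined, the gap between 1 library and the nearest of the other 4 exceeded Dixon's critical value. That value is 0.71 of the group's range, which about 1 in 20 groups of independent normal values would pass. The groups here include sums beside their own transcripts and values at 0, so that rate is no measure of chance for them. SRp55 siRNA replicate 1 was high for the SYNE4 sum (17.5 RPKM, next 9.87 RPKM), SYNE4-201 (6.0 RPKM, next 3.29 RPKM) and the SYNE2 sum (16.4 RPKM, next 7.11 RPKM), and low for the share of SYNE2 that reaches the last exon (51.0%, next 86.6%). SRp55 siRNA replicate 4 was high for SYNE4-202 (2.77 RPKM, next 0.395 RPKM), and replicate 5 for the SYNE1 transcript ENST00000545694.1 (11.5 RPKM, next 1.73 RPKM).

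Between the giant SYNE2 forms, ENST00000344113.4 was high in SRp55 siRNA replicate 3 (3.62 RPKM, next 0.929 RPKM) and control siRNA replicate 5 (4.66 RPKM, the other 4 at 0), and ENST00000358025.3 was low in control siRNA replicate 5 (0.250 RPKM, next 4.01 RPKM).

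Among SUN1 transcripts, ENST00000464442.1 was high in SRp55 siRNA replicate 3 (41.1 RPKM, next 12.6 RPKM), ENST00000488628.1 in SRp55 siRNA replicate 4 (10.9 RPKM) and control siRNA replicate 2 (12.7 RPKM), and ENST00000401592.1 in SRp55 siRNA replicate 2 (1.43 RPKM). ENST00000340926.3 was low in SRp55 siRNA replicate 4 (0.430 RPKM). ENST00000413171.2 was high in control siRNA replicate 5 (3.79 RPKM), and ENST00000425407.2 in control siRNA replicate 2 (3.45 RPKM). In SUN2, ENST00000430185.1 was high in control siRNA replicate 2 (9.82 RPKM, next 0.445 RPKM).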

How the results depend on the processing

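Gene fold changes and counts of calls for SYNE1, SYNE2, SYNE3, SUN1 and SUN2 were recomputed, with 17 alternatives for genes and usage and 16 for transcripts, where estimated reads were not run. The count of genes passing limma, 0 of 5, became 1 on estimated reads (SYNE3), and ranged from 0 to 1 when single libraries were left out (SYNE1, without SRp55 siRNA replicate 1 or control siRNA replicate 4). The transcript and usage counts were 0 in every fit run. With the replicate block, no last-exon share passed (SYNE1 -12.3 points, adjusted exact permutation p = 0.188), the gene, transcript and usage counts of these genes were 0, and 3 partner genes passed (KIF5B, KIF5C and LMNB1). Partner genes numbered 4 on estimated reads (KLC1, LMNB1, PLEC and TOR1AIP1) and 0 to 1 with a library left out (BANF1, without control siRNA replicate 4). The share of transcripts that reach the last exon passed in 1 gene, SYNE1, on estimated reads and with unmatched transcripts left out, and in 0 to 1 with a library left out. The difference in usage of SYNE4-207 was -56.7 points on estimated reads and -69.1 to -66.2 with a library left out, and the log2 fold change of the SYNE4 sum was -0.36 and -1.01 to -0.74. The cause of these shifts was not tested. Over all genes, 684 passed, 1784 with the block, 2340 on estimated reads and 259 to 1083 with a library left out, and 50 genes passed for usage, 25 to 82 with a library left out. The SYNE2 fold change, which never passed, was below 0 without SRp55 siRNA replicate 1 and on estimated reads (-0.02 in both). That of SUN2, which never passed either, was above 0 on estimated reads (0.09), with no filter (0.05), and without control siRNA replicate 2 (0.09) or SRp55 siRNA replicate 2 (0.04). With 5 libraries a group, the 95% interval of the SUN1 fold change ran from -0.36 to 1.42.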
